A study of Mus musculus with 4 samples.

Results

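Imprinted genes are expressed mainly from the copy inherited from 1 parent. The members described here are 38 genes known as imprinted in mouse, listed by name, at 18 clusters or single loci, and were found by symbol among the 47885 rows of a gene count table. In mouse, 20 are known for expression from the paternal copy and 17 from the maternal copy. The remaining gene, Gnas, has promoters that differ in the copy they use. All 38 were in the table, and 35 passed the filter on low counts that left 15563 genes for testing.

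Each of the 4 libraries held the polyadenylated RNA of a single C57BL/6 embryo at the egg cylinder stage (embryonic day 5.5), amplified by Smart-Seq, with 16108062 to 28698541 counts in total. The 2 WT embryos carry the label Mettl14+/+ and the 2 KO embryos the label Mettl14-/-. Per the labels' protocols, an embryo's genotype was read only once it had been sequenced, from Mettl14 qPCR on its amplified cDNA, and embryos with Mettl14 mRNA were classed as controls, so a heterozygous control cannot be told apart from a homozygous one. METTL14 is a partner of METTL3, and together they place the mark N6-methyladenosine (m6A) on RNA. Mettl14 itself stood at 34.0 and 31.6 CPM (a gene's count relative to the TMM-scaled library total) in WT replicates 1 and 2 and at 4.63 and 8.04 CPM in KO replicates 1 and 2 (log2 fold change -2.37, SE 0.45). No test is given, since the groups were defined by Mettl14 mRNA measured on the same cDNA. The embryos were of 1 strain background and the table has 1 count per gene, so each value sums both parental copies and says nothing of which copy was expressed.

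Imprints are DNA methylation marks set in the egg or sperm at control regions and kept through the genome-wide demethylation of the early embryo. A control region sets the expression of a whole cluster, often with a long noncoding RNA from 1 copy and protein-coding genes from the other. Imprinted genes are known for control of growth and of the placenta, whose precursors, extraembryonic ectoderm and ectoplacental cone, were part of these whole embryos. Some loci, among them Sfmbt2, Jade1 and Slc38a4, are known for an imprint that rests on histone methylation and persists mainly in extraembryonic tissue.

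The cluster whose members differed most is named for Dlk1 and Meg3, on chromosome 12. From its maternal copy come the noncoding RNAs Meg3, Rian and Mirg and many microRNAs, and from its paternal copy the protein-coding genes Dlk1 and Rtl1. Rtl1 is transcribed against the maternal RNAs, and microRNA hairpins lie on the strand opposite its exon. The mature sequences below, from 5 of the 6 such hairpins matched in RefSeq (build GRCm38.p6), are shown because they lie opposite Rtl1. Capitals mark the seed, bases 2 to 8.
mmu-miR-431-5p: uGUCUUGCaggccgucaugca
mmu-miR-433-3p: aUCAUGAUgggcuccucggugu
mmu-miR-127-3p: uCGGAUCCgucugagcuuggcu
mmu-miR-434-3p: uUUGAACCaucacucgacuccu
mmu-miR-136-5p: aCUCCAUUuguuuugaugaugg

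Each of the 11 mature sequences of the 6 hairpins had its reverse complement in the Rtl1 transcript (GENCODE M21), which follows from their position. Their 11 seeds all differed. The stretch of Rtl1 opposite miR-127-3p, written as DNA with the seed match in capitals, is shown as the example.
Rtl1 opposite mmu-miR-127-3p: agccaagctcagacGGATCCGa
The microRNAs themselves were not measured, since libraries of long polyadenylated RNA do not hold them: 58 of the 66 microRNA genes of the table between the start of Meg3 and the end of Mirg had 0 counts, and the 66 together had 26 counts over 4 libraries. The amplification kit does not mark strand, so reads from Rtl1 and from maternal RNA opposite it cannot be told apart.

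Here CPM was scaled by the trimmed mean of M-values (TMM). Meg3 (ENSMUSG00000021268, chr12:109541001-109571726, mm10), a noncoding RNA of the maternal copy, stood at 106 and 55.6 CPM in WT replicates 1 and 2, and at 33.9 and 7.03 CPM in KO replicates 1 and 2. Rian (ENSMUSG00000097451, chr12:109603940-109661716), a noncoding RNA that hosts small nucleolar RNAs, stood at 113 and 61.6 CPM in WT and at 40.4 and 17.0 CPM in KO. Both KO embryos were below both WT embryos for these genes, and KO replicate 2 was the lowest. Mirg (chr12:109729764-109749460), a microRNA host downstream, had 7.90 and 7.0 CPM in WT and 5.57 and 2.05 CPM in KO.

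Rtl1 (ENSMUSG00000085925, chr12:109589193-109600330), a gene derived from a retrotransposon and needed for fetal vessels of the placenta, had 6.07 and 3.42 CPM in WT (103 and 64 counts) against 0.614 and 0.144 CPM in KO (13 and 4 counts). It reached the low-count filter through the WT embryos. Dlk1 (ENSMUSG00000040856, chr12:109452823-109463336), which encodes a transmembrane protein of the Notch ligand family that restrains differentiation, went the other way, with 0.943 and 1.55 CPM in WT and 2.79 and 7.43 CPM in KO. The WT libraries held 16 and 29 counts of Dlk1, against 59 and 207 in the KO libraries. All 5 genes of the cluster thus separated the groups, 4 lower and 1 higher in KO, beside a background of 18.8% of tested genes with both KO embryos below both WT and 19.4% with both above. The cluster was singled out after its values were seen.

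The log2 fold change, KO over WT, was -1.98 (SE 0.69, n = 2 per group) for Meg3, -1.61 (SE 0.51) for Rian, -0.97 (SE 0.64) for Mirg, -3.65 (SE 0.96) for Rtl1 and 2.03 (SE 0.78) for Dlk1. None passed the threshold of 0.05 in edgeR's quasi-likelihood test adjusted over all genes, where adjusted p ran from 0.387 for Rtl1 to 0.8 for Mirg. With DESeq2, Rtl1 (adjusted p = 0.0274) and Meg3 (adjusted p = 0.047) passed and Rian (adjusted p = 0.0512) did not. By edgeR 0 of all 15563 genes passed. Both KO libraries moved these values. Without KO replicate 1 they were -3.44 for Meg3 (edgeR adjusted p = 0.0057), -2.27 for Rian, -1.78 for Mirg, -4.91 for Rtl1 and 2.65 for Dlk1. Without KO replicate 2 they were -1.24, -1.10, -0.41, -2.93 and 1.16 in the same order. The signs held with either WT library left out.

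**Figure D1:**
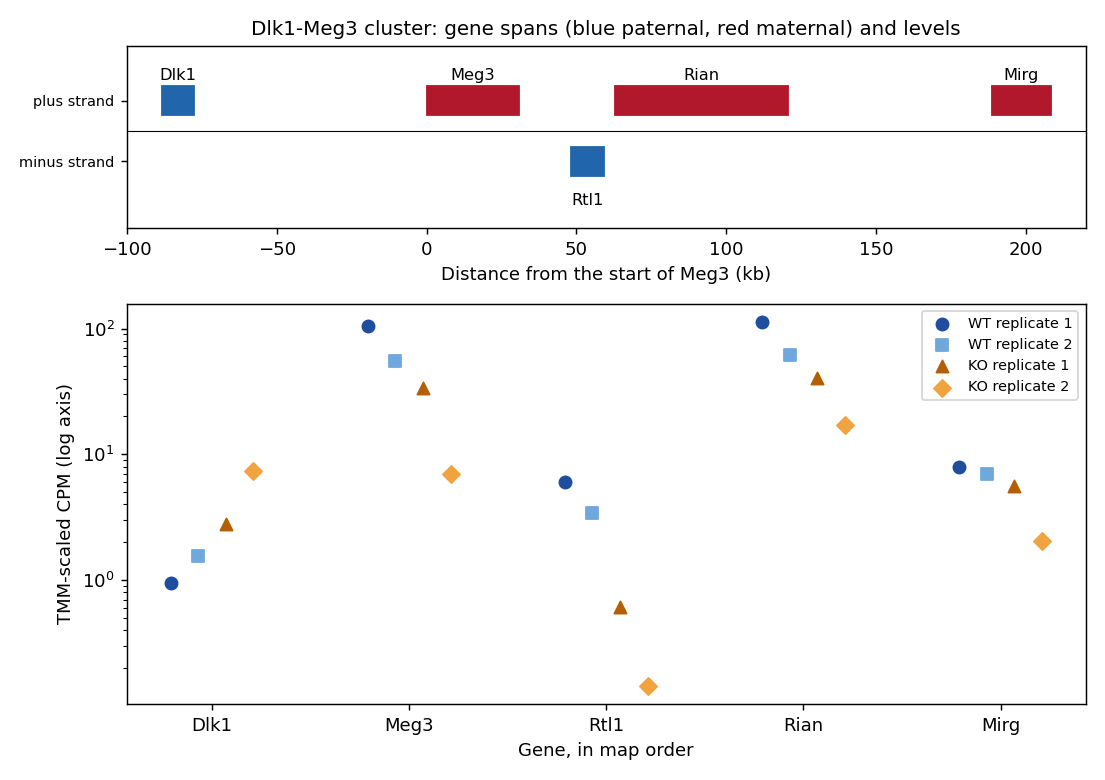
The upper panel maps the 5 genes of the Dlk1-Meg3 cluster by distance from the start of Meg3 in kb, with strand on the vertical axis. The lower panel gives TMM-scaled CPM on a log axis, 1 point per embryo. The 3 maternal RNAs and Rtl1 are lower in both KO embryos and Dlk1 is higher, from 0.943 CPM in WT replicate 1 to 7.43 CPM in KO replicate 2.

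A ratio of counts within a library does not depend on scaling between libraries. Meg3 counts per Dlk1 count were 112 and 35.9 in WT, and 12.2 and 0.947 in KO. The embryos of a group also differed. Meg3 was lower and Dlk1 higher in both KO embryos, so this ratio had to separate the groups and adds no support. Meg3 per Rian count was 0.936 and 0.903 in WT and 0.841 and 0.413 in KO. Meg3 per Rtl1 count was 17.4 and 16.3 in WT and 55.3 and 49.0 in KO, higher in both KO embryos, as Rtl1 was lower by more than Meg3. With 2 embryos against 2, an exact two-sided permutation test of a single ratio cannot go below p = 0.333, so no p is given for these.

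The RefSeq promoter windows, 250 bases before to 50 after a start, are shown for Meg3 and Dlk1, the pair with opposite signs, and for Peg3, described below. Capitals mark TGCCGC or its reverse complement GCGGCA, the letters bound by ZFP57, a zinc finger protein that keeps methylation at imprints.
Meg3 (chr12:109540746-109541045, plus strand): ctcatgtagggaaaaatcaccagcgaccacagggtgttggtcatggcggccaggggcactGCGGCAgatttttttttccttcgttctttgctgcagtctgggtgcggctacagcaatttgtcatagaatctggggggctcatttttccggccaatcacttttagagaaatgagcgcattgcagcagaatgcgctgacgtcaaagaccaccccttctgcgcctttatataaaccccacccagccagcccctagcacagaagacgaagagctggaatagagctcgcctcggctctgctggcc
Dlk1 (chr12:109452573-109452872, plus strand): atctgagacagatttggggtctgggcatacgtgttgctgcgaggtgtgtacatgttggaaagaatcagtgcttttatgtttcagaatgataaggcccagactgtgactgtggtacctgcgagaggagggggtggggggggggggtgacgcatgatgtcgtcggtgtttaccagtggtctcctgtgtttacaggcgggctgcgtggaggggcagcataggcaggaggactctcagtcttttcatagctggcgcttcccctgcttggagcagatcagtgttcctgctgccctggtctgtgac
Peg3 (chr7:6730370-6730669, minus strand): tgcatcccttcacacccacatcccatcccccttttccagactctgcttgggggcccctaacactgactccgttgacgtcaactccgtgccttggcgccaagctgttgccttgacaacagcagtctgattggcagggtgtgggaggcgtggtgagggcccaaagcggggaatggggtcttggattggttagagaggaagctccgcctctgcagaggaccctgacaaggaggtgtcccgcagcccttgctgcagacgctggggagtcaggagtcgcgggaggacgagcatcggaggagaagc

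The Meg3 window held 1 match and 13 CpG sites, the Dlk1 window 0 matches and 9 CpG sites, and the Peg3 window 0 matches and 13 CpG sites. Windows were found for 30 of the 38 members. Of these 30 genes, 10 had a match on either strand in at least 1 of their windows (33.3%), against 13.1% of all 27025 genes with a window. By window, 11 of 52 held a match (21.2%), against 11.6% of all 32851 windows. Windows of 1 gene can overlap: those of Mest that start at 30737800 and 30737803 each held 2 matches and count separately. Members also had more windows per gene, 52 for 30 genes against 32851 for 27025, which gives a gene more chances of a match. Windows of the members had a median of 13.5 CpG sites against 7 for all windows, and a motif with a CpG is more frequent where CpG sites are. A match is a description of the letters, and methylation was not measured.

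Peg10 had the smallest p among the members. It is a paternally expressed gene derived from a retrotransposon and needed for the placenta (ENSMUSG00000092035, chr6:4747306-4760517). It stood at 83.4 and 71.8 CPM in WT and at 28.2 and 14.0 CPM in KO, so that the higher KO embryo was well below the lower WT embryo. KO over WT this was a log2 fold change of -1.88 (SE 0.43, n = 2 per group), called by DESeq2 (adjusted p = 0.00253) and not by edgeR (adjusted p = 0.328). Leaving out 1 library at a time gave -2.39 to -1.45.

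The paternal neighbour Sgce, which encodes a sarcoglycan of the cell membrane, starts on the other strand beside Peg10. It had 6.78 and 16.7 CPM in WT and 6.52 and 7.10 CPM in KO, so that KO was close to WT replicate 1. The count ratio of Peg10 to Sgce was 12.3 and 4.31 in WT and 4.33 and 1.97 in KO, and these groups overlapped. The maternally expressed genes of the same region also overlapped between groups. Ppp1r9a, which encodes the scaffold neurabin, had 29.7 and 10.2 CPM in WT and 21.0 and 5.70 CPM in KO. Asb4, an adaptor of a ubiquitin ligase, had 3.07 and 2.40 CPM in WT and 0.708 and 2.51 CPM in KO.

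Peg3, a paternally expressed zinc finger gene known for control of growth and maternal behaviour, had 179 and 125 CPM in WT and 79.2 and 82.3 CPM in KO (ENSMUSG00000002265, chr7:6703892-6730431). The KO embryos lay close together and below both WT embryos, a log2 fold change of -0.91 (SE 0.33, n = 2 per group; edgeR adjusted p = 0.545, DESeq2 adjusted p = 0.291). Usp29 (chr7:6730578-6967219), a ubiquitin protease gene, shares this promoter: 263 of the 300 bases of its window are those of the Peg3 window on the other strand. It had 4.78 and 1.87 CPM in WT and 2.03 and 0.359 CPM in KO. Zim1 (chr7:6671269-6696450), the maternally expressed zinc finger gene beside them, was seen with 13 and 7 counts in the WT libraries and with 0 in those of KO. Taking 3 counts over the KO group as the most that 0 allows, the pooled WT level of Zim1 was 9.17-fold above that limit. Counting error in the WT counts is left out of this value, so the true difference may be smaller. Zim1 did not pass the filter.

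H19 and Igf2 share enhancers on distal chromosome 7, used by H19 on the maternal copy and by Igf2 on the paternal one. H19 (ENSMUSG00000000031, chr7:142575529-142578143), a noncoding RNA, had 571 and 416 CPM in WT and 523 and 300.1 CPM in KO. Igf2 (chr7:142650766-142666816), the growth factor gene, had 85.4 and 72.7 CPM in WT and 87.9 and 51.6 CPM in KO. Both genes were lowest in KO replicate 2 and otherwise overlapped between groups, with log2 fold changes of -0.26 (SE 0.35) and -0.18 (SE 0.37). H19 counts per Igf2 count were 6.68 and 5.73 in WT and 5.95 and 5.82 in KO, a far narrower range than that of Meg3 to Dlk1.

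Igf2os, antisense to Igf2 and no member of the list, shares 98 exon bases with it. Per kilobase of exon, H19 was the most abundant of the 38 genes in WT replicates 1 and 2, at 232 and 169 CPM per kilobase, and in KO replicate 1, at 213. In KO replicate 2 Snrpn came first, at 149 against 122 for H19.

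The clearance receptor for IGF2, Igf2r, is expressed from the maternal copy, and Airn, a noncoding RNA that runs across it from the paternal copy, silences it there. Igf2r had 41.9 and 28.4 CPM in WT and 34.7 and 10.98 CPM in KO (log2 fold change -0.62, SE 0.56). It was -0.0051 without KO replicate 2 and -1.60 without KO replicate 1. Airn, with 23 and 9 counts in the WT libraries and 9 and 0 in the KO libraries, had too few for the filter. Grb10 (chr11:11930508-12038683), an adaptor that restrains insulin and IGF signalling, had 116 and 72.1 CPM in WT and 69.8 and 18.9 CPM in KO, with KO replicate 1 just under WT replicate 2. Its log2 fold change was -1.09 (SE 0.58, edgeR adjusted p = 0.751), and it was -2.23 without KO replicate 1 (edgeR adjusted p = 0.0375) and -0.42 at its weakest with 1 library left out.

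The Kcnq1 cluster on distal chromosome 7 has 7 members. Cdkn1c (chr7:143458339-143461050), the maternally expressed cell cycle inhibitor p57, had 58.8 and 82.8 CPM in WT and 55.2 and 31.6 CPM in KO (log2 fold change -0.71, SE 0.40). Both KO embryos were below both WT embryos, KO replicate 1 by little, and without KO replicate 2 the value was -0.35. Tssc4 (chr7:143069249-143071093), a gene of splicing particle assembly, had 19.2 and 40.6 CPM in WT and 47.9 and 76.6 CPM in KO (log2 fold change 1.06, SE 0.46, edgeR adjusted p = 0.641). Among the 7 listed members it was the 1 with both KO embryos above both WT embryos. Genes of the second imprinted list, described below, were not counted, so Tssc4 need not be the only such gene of the region. In that list 7 of 25 tested genes, Phlda2, Ascl2, Osbpl5 and Th among them, also had both KO embryos above both WT embryos. For 4 both were below.

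Of the others of the cluster, 3 protein-coding genes overlapped between groups. Cd81, a tetraspanin gene, had 116 and 115 CPM in WT and 93.5 and 154 CPM in KO (log2 fold change 0.10, SE 0.35). Nap1l4, a histone chaperone gene, had 106 and 142 CPM in WT and 97.2 and 119 CPM in KO (-0.20, SE 0.33). Slc22a18, a transporter gene, had 1.59 and 3.42 CPM in WT and 2.83 and 1.79 CPM in KO (-0.12, SE 0.78). These 3 values were smaller than their SE. The potassium channel gene Kcnq1 had 1 count in KO replicate 1 and 0 in each of the other libraries.

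Kcnq1ot1 (chr7:143203458-143296549), the paternally expressed noncoding RNA that silences this cluster, varied most between embryos of 1 group. It had 205 and 46.0 CPM in WT and 194 and 6.03 CPM in KO, high in replicate 1 and low in replicate 2 of each group. The log2 fold change of -0.33 (SE 1.20) was 1.08 without WT replicate 1, 0.64 without KO replicate 2 and -4.29 without KO replicate 1 (edgeR adjusted p = 0.0127). Its annotation is a single unspliced exon of 93092 bases inside Kcnq1.

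Some other noncoding RNAs, chosen after their values were seen, were also lower in replicate 2 of each group. Malat1, a nuclear RNA, had 681 and 293 CPM in WT and 496 and 96.7 CPM in KO. Snhg14, the long noncoding RNA from the Snrpn region, had 280.0 and 54.7 CPM in WT and 123 and 14.7 CPM in KO. Not all went this way. Nespas, on the strand opposite Gnas, had 2.53 and 5.13 CPM in WT and 1.56 and 3.44 CPM in KO. Igf2os had 6.90 and 10.5 CPM in WT and 23.1 and 14.5 CPM in KO. Annotated long noncoding RNA as a whole took 1.25% and 0.712% of counts in WT and 0.908% and 0.484% in KO. Meg3, Rian and Mirg are noncoding RNAs too, and the part of this shift in their values was not tested.

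**Figure D2:**
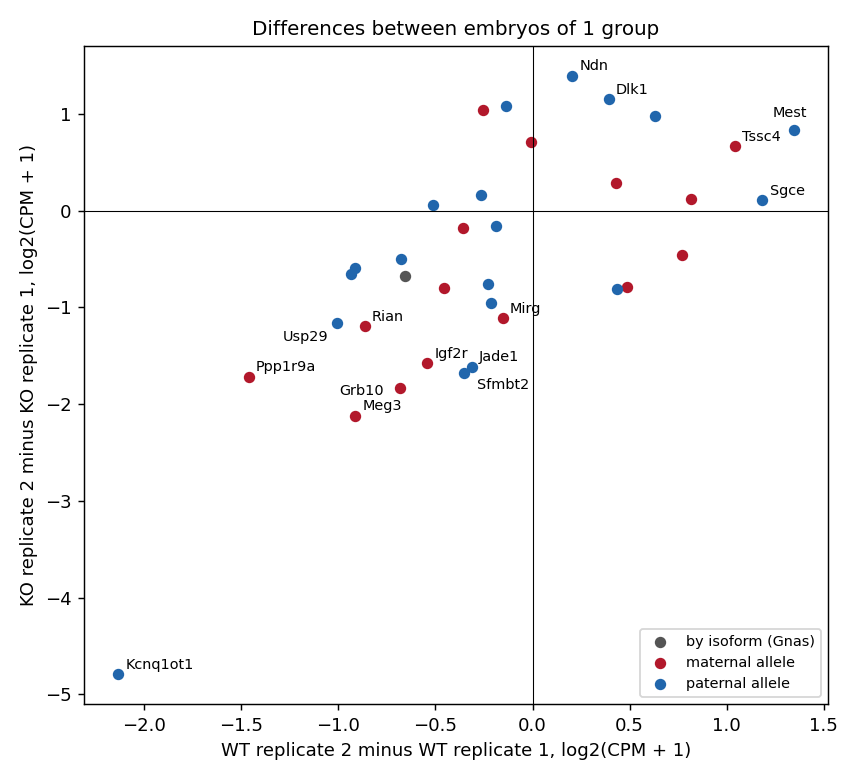
Each point is 1 of the 35 tested imprinted genes, with WT replicate 2 minus WT replicate 1 on the horizontal axis and KO replicate 2 minus KO replicate 1 on the vertical axis, both in log2(CPM + 1). Kcnq1ot1 lies far from the others, and Meg3, Grb10, Ppp1r9a and Rian are lower in replicate 2 of both groups.

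Over the 35 tested members the difference between the WT embryos and that between the KO embryos correlated at a Pearson r of 0.696, and at 0.596 for the 34 other than Kcnq1ot1. Over all 15563 tested genes r was 0.371. These are correlations across genes, which share the same 4 libraries, and replicate numbers are not known to mark a litter or day.

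Among genes known for an extraembryonic imprint, Sfmbt2 (chr2:10370510-10595253), a Polycomb gene, had 239 and 187 CPM in WT and 197 and 60.8 CPM in KO (log2 fold change -0.72, SE 0.51). Jade1 (chr3:41555731-41616864), a scaffold gene of a histone acetyltransferase, had 133 and 107 CPM in WT and 166 and 53.7 CPM in KO (-0.12, SE 0.50). Slc38a4 (chr15:96994820-97055956), an amino acid transporter gene of the placenta, had 132 and 178 CPM in WT and 135 and 76.8 CPM in KO (-0.55, SE 0.38). In all 3 genes KO replicate 1 lay within or above the WT values and KO replicate 2 below both. Without KO replicate 2 the log2 fold change was -0.10 for Sfmbt2, 0.49 for Jade1 and -0.19 for Slc38a4.

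Snrpn and Ndn belong to the region of the Prader-Willi syndrome and are paternally expressed. Ndn (chr7:62346569-62350262), which encodes the growth suppressor necdin, had 10.3 and 11.97 CPM in WT and 12.8 and 35.2 CPM in KO (log2 fold change 1.11, SE 0.54, edgeR adjusted p = 0.698). KO replicate 1 was just above WT, and without KO replicate 2 the value was 0.21. Snrpn (chr7:59982495-60140219), which encodes a core protein of splicing particles, had 192 and 298 CPM in WT and 163 and 322 CPM in KO (-0.02, SE 0.40). It shares 589 exon bases with Gm38393 on the same strand. Snrpn counts per Ndn count were 18.7 and 24.9 in WT and 12.7 and 9.13 in KO, without overlap. With 2 embryos against 2, such a separation cannot go below p = 0.333 in an exact two-sided permutation test.

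A pair of loci hold a paternally expressed retrocopy inside an intron of a maternally expressed host. H13, the signal peptide peptidase gene, and Mcts2, a translation factor gene within it, differed by 0.37 (SE 0.38) and 0.19 (SE 0.35) in log2 fold change. H13 stood at 51.7 and 92.0 CPM in WT and at 88.9 and 96.7 CPM in KO, low in WT replicate 1 alone. Mcts2 stood at 44.4 and 36.8 CPM in WT and at 43.7 and 49.0 CPM in KO. Its transcript matched that of its parent Mcts1 at 83.9% of 678 aligned bases, with at most 29 identical bases in a row, and Mcts1 had a log2 fold change of 0.03 (SE 0.34).

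Commd1, a gene of endosomal sorting, had 29.7 and 22.9 CPM in WT and 30.5 and 26.9 CPM in KO (0.12, SE 0.37). Zrsr1, a splicing factor gene within it, had 5.31 and 2.30 CPM in WT and 2.31 and 1.11 CPM in KO (-1.15, SE 0.79). The genes share 412 exon bases on opposite strands. Commd1 counts per Zrsr1 count were 5.60 and 9.98 in WT and 13.2 and 24.2 in KO, without overlap between groups. The permutation limit of p = 0.333 holds for this ratio too.

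**Figure D3:**
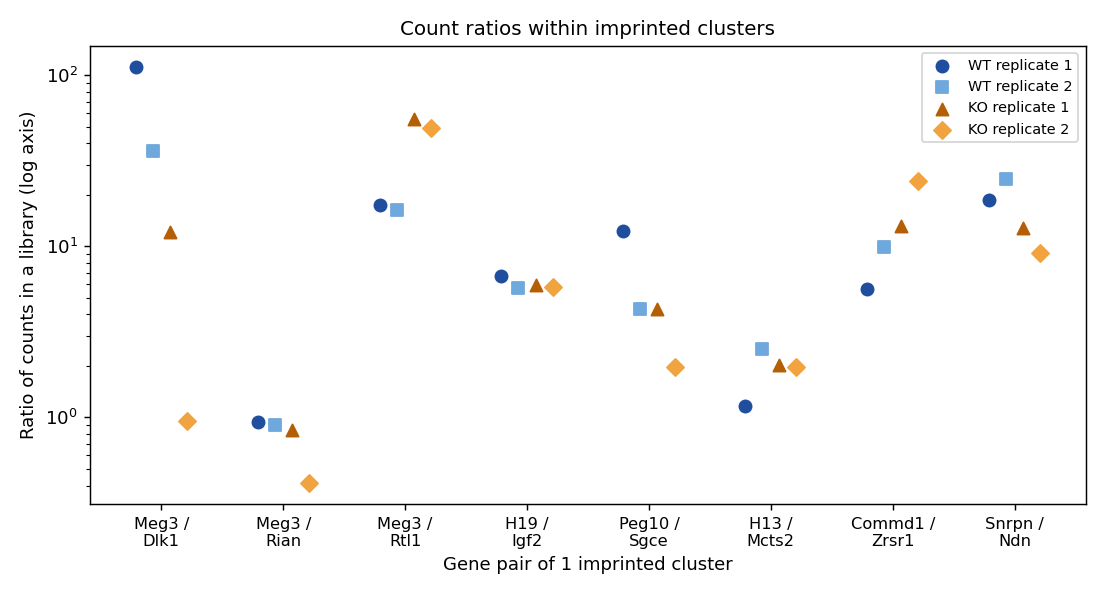
Ratios of counts between 2 genes of 1 imprinted cluster on a log axis, 1 point per embryo. Meg3 to Dlk1 runs from 112 in WT replicate 1 to 0.947 in KO replicate 2, while H19 to Igf2 stays between 5.73 and 6.68.

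The remaining single loci had values in both groups that overlapped. Mest (chr6:30723547-30748465), a hydrolase gene of mesoderm, had 36.0 and 93.2 CPM in WT and 27.8 and 50.3 CPM in KO, and shares 912 exon bases with Copg2 on the other strand. Nnat, which encodes the membrane protein neuronatin, had 20.1 and 18.2 CPM in WT and 13.7 and 30.1 CPM in KO, a log2 fold change of 0.19 (SE 0.47), and -0.47 without KO replicate 2. Impact (chr18:12955852-12992950), a regulator of translation, had 20.6 and 18.01 CPM in WT and 21.8 and 19.5 CPM in KO, the narrowest range, as a ratio, of the tested members. Plagl1, a zinc finger gene, was near the limit of detection, at 0.884 and 0 CPM in WT and 0.567 and 0.0359 CPM in KO. Gnas, which encodes a G protein subunit, had 2.59 and 1.28 CPM in WT and 1.75 and 0.718 CPM in KO, and shares 988 exon bases with Nespas and 1469 with Gm20721 on the other strand.

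Across the 35 tested members, 26 had a negative and 9 a positive log2 fold change, with a median of -0.56, while the median over all tested genes was -0.03. The median was -0.55 for the 19 tested genes of the paternal copy (14 negative) and -0.58 for the 15 of the maternal copy (11 negative). For all members it was -0.93 without KO replicate 1, -0.30 without KO replicate 2, -0.35 without WT replicate 1 and -0.35 with at least 50 counts required in 2 libraries. Against the mean of the WT embryos the median member differed by -0.18 in KO replicate 1 and by -0.70 in KO replicate 2, in log2(CPM + 1), beside 0.02 and -0.05 over all tested genes.

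KO replicate 2 was the lowest library for 18 of the 35 members (51.4%), beside 33.6% of all tested genes. KO replicate 1 was lowest for 8 (19.8% of all genes), WT replicate 1 for 5 (25.3%) and WT replicate 2 for 4 (20.3%). Both KO embryos lay below both WT embryos for 8 of the 35 tested members, beside 18.8% of all tested genes, and above for 3, beside 19.4%. Together these were 31.4% of the members, beside 38.2% of all tested genes. Groups that did not overlap were thus no more frequent among the members than elsewhere. Outside the Dlk1-Meg3 cluster 4 of 30 tested members were below, Peg3, Peg10, Cdkn1c and Grb10, and 2 above, Tssc4 and Ndn. Of the 3 members not tested, Airn and Zim1 also had both KO embryos below both WT embryos.

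By edgeR 0 members passed the threshold in either direction, where 0% of all genes did. At an unadjusted p under 0.05, 5 members were lower (Peg10, Rtl1, Rian, Meg3 and Peg3), beside 3.08% of all genes, and 1 was higher (Dlk1), beside 4.74%. DESeq2 called 3 members lower (Peg10, Rtl1 and Meg3), beside 0.578% of all genes, and 0 higher, beside 0.964%. On the simulated counts described below, DESeq2 made more false calls per draw than edgeR, 29.6 against 5.2. Rtl1 is in both counts of lower members although it passed the low-count filter through the WT embryos. Without KO replicate 1 edgeR called 6 members lower (Peg10, Rtl1, Rian, Meg3, Grb10 and Kcnq1ot1), beside 209 of all 16786 genes tested in that setting. Without any other single library it called 0 members lower, beside 1 to 26 of all genes. These p-values rest on the spread between 2 single embryos in each group.

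**Figure D4:**
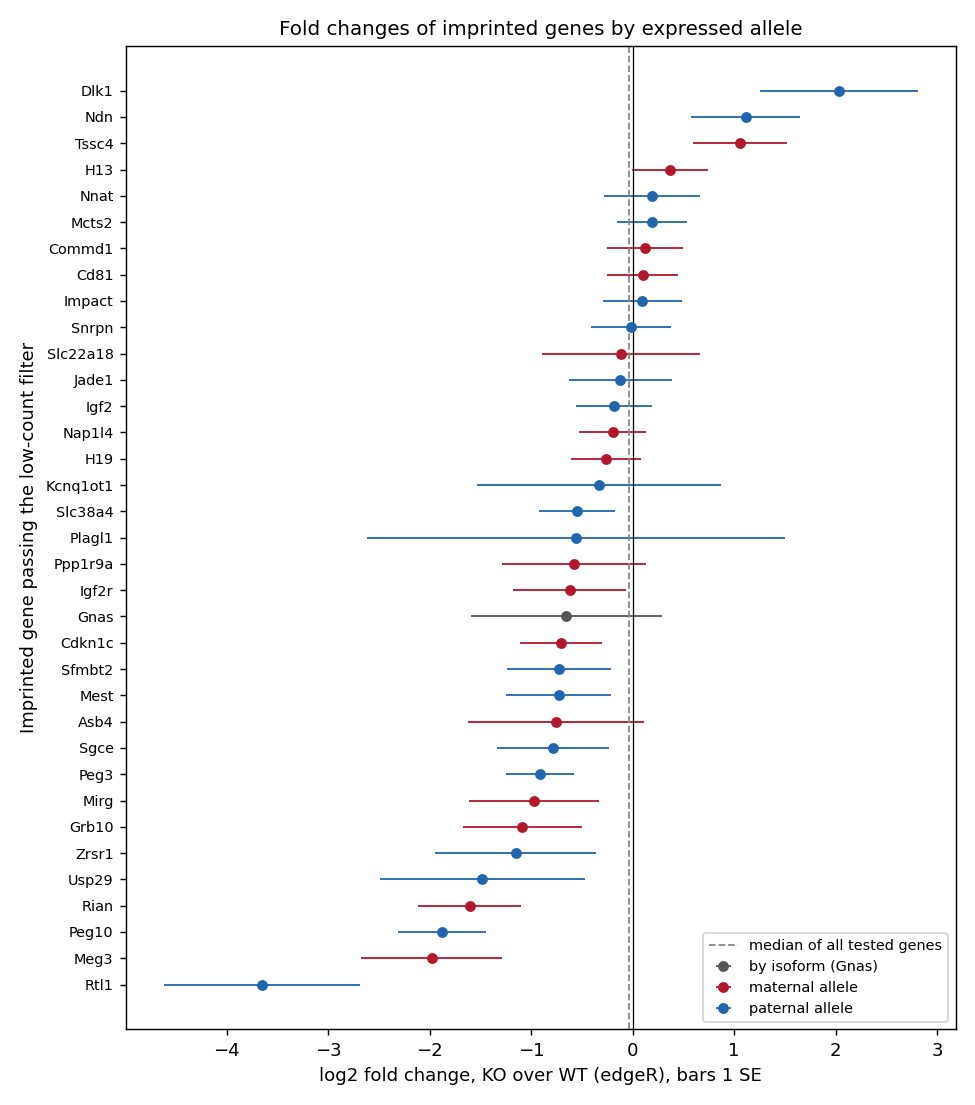
Log2 fold change, KO over WT, of the 35 tested imprinted genes, with bars of 1 SE, coloured by the parental copy known to be expressed. Genes of both copies lie on both sides of 0, from Rtl1 at -3.65 to Dlk1 at 2.03, and the dashed line is the median of all tested genes.

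**Figure D5:**
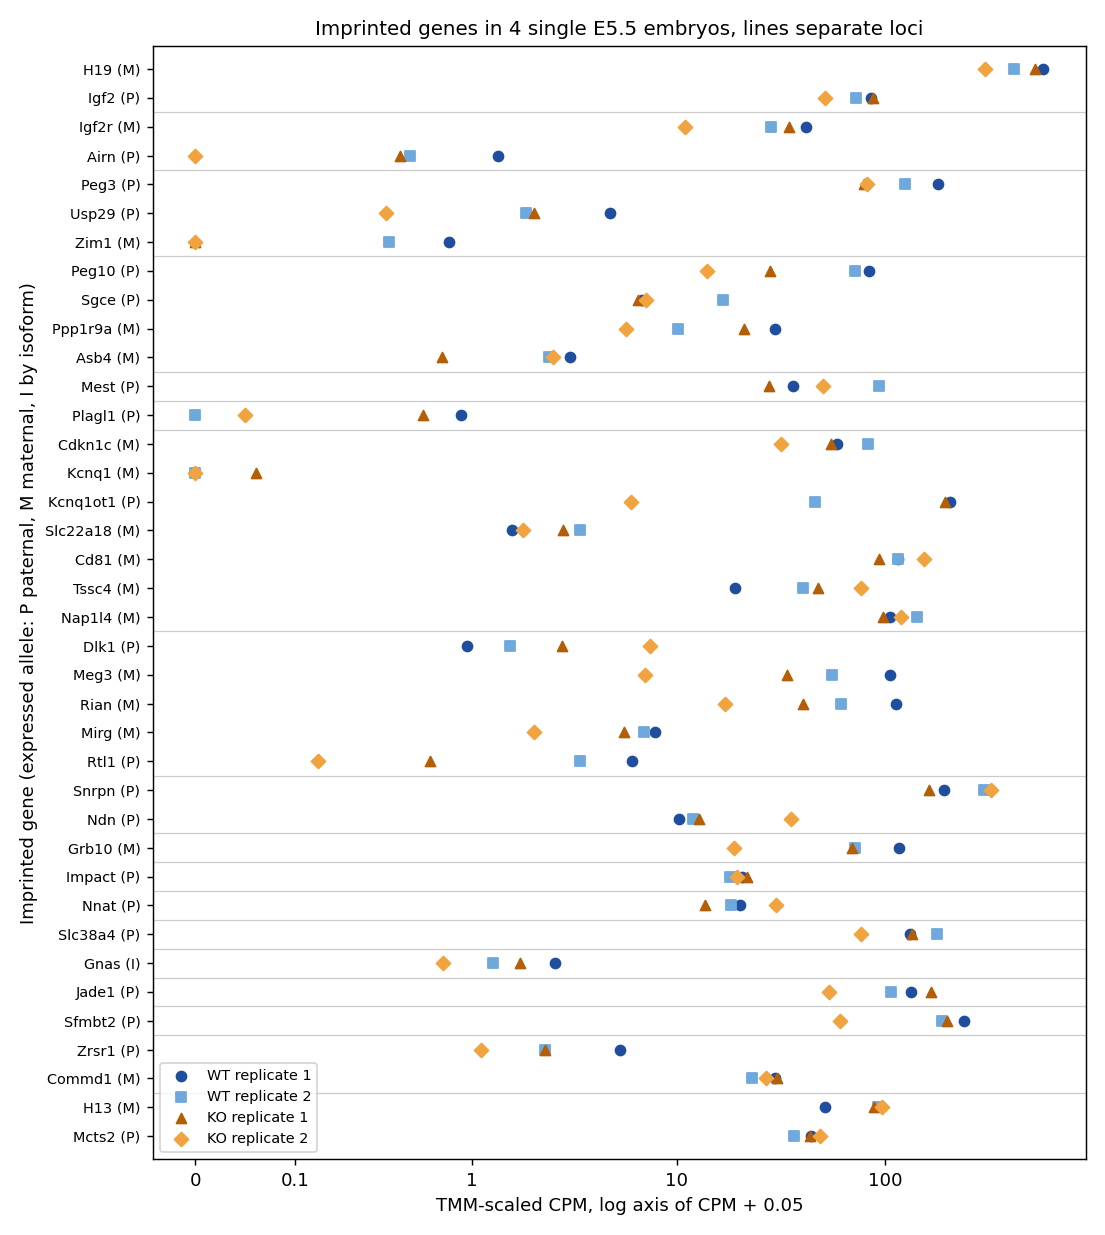
TMM-scaled CPM of all 38 imprinted genes on a log axis of CPM + 0.05, 1 point per embryo, with lines between loci. Levels run from 0 to 571 CPM (H19), and KO replicate 2 is the lowest point for 18 of the 35 tested genes.

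In a second list of 38 genes also reported as imprinted, 37 were in the table and 25 were tested, with 12 positive and 13 negative and a median of -0.08. By edgeR 0 passed the threshold, and DESeq2 called 1 lower (Dcn, adjusted p = 0.00015). Both KO embryos lay above both WT embryos for 7 of the 25 and below for 4, beside 19.4% and 18.8% of all tested genes. At an unadjusted p under 0.05 edgeR had 5 higher, beside 4.74% of all genes, and 1 lower, beside 3.08%. The 5 higher were Phlda2, Rasgrf1, Th, Ascl2 and Osbpl5. Ascl2 is also 1 of the 7 ectoplacental cone and giant cell markers given below. Of the 5, Rasgrf1 (1 and 0 counts in WT) and Th (2 and 6) reached the low-count filter only through the KO embryos, so they had to differ. The smallest p belonged to Dcn, the matrix proteoglycan decorin, with 8.49 and 15.1 CPM in WT and 1.32 and 0.718 CPM in KO; it is also a marker of maternal decidua. Phlda2, which limits placental growth, had 198 and 284 CPM in WT and 624 and 415 CPM in KO. Rasgrf1, an exchange factor gene, and Th, the tyrosine hydroxylase gene, followed in order of p, and neither reached 4 CPM in any embryo.

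Among 20 genes that keep or set imprints, 15 had negative values (median -0.21), beside 8138 of all 15563 tested genes. Both KO embryos lay below both WT embryos for 10 of the 20, beside 18.8% of all tested genes, and above for 1, beside 19.4%. By edgeR 0 passed. At an unadjusted p under 0.05 edgeR had 3 lower, beside 3.08% of all genes, and 0 higher, beside 4.74%. DESeq2 called 0. Uhrf1, which guides maintenance methylation to new DNA, had 187 and 193 CPM in WT and 112 and 95.2 CPM in KO (log2 fold change -0.88, SE 0.30). Dppa3, which protects imprints after fertilization, had 24.2 and 24.5 CPM in WT and 4.67 and 13.6 CPM in KO. Dnmt3b, a de novo methyltransferase gene, differed by -0.72 (SE 0.29), and Trim28, the corepressor recruited by ZFP57, by -0.50 (SE 0.27). Dnmt3b is also 1 of the 8 epiblast markers given below. Zfp57, named here for its motif, differed by 0.22 (SE 0.42).

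The mix of tissues also differed between libraries, and in whole embryos fewer cells of a type and less RNA per cell cannot be told apart. The summed level of 8 visceral endoderm markers was 659 and 1756 CPM in WT and 249 and 316 CPM in KO, with 8 of 8 negative. That of 7 ectoplacental cone and giant cell markers was 176 and 291 CPM in WT and 1209 and 624 CPM in KO. Prl2c2, Ctsq and Tpbpa were at 0 in every library. The 4 tested, Hand1, Plac1, Prl3d1 and Ascl2, were all positive, with both KO embryos above both WT embryos. Hand1 made up most of the WT sum, at 151 and 262 CPM. Plac1 had 6.78 and 2.14 CPM in WT and 287 and 75.9 CPM in KO. Prl3d1, which reached the low-count filter through the KO embryos, had 0 and 0.695 CPM in WT and 322 and 46.5 CPM in KO. The 8 extraembryonic ectoderm markers summed to 631 and 704 CPM in WT and 1044 and 665 CPM in KO, with 5 positive and 3 negative. In both KO embryos Bmp4 and Gata3 were above both WT embryos and Sox21 below. The 8 epiblast markers summed to 2492 and 2485 CPM in WT and 1782 and 2758 CPM in KO, with 3 positive and 5 negative. Here Nanog was above both WT embryos in both KO embryos, and Otx2, Sox3 and Dnmt3b were below. Over all tested genes 19.4% were above and 18.8% below.

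The 8 markers of maternal decidua summed to 18.7 and 27.5 CPM in WT and 4.67 and 4.31 CPM in KO. Of these Dcn alone gave 8.49 and 15.1 CPM in WT, Hoxa11 was at 0 in every library, and Prl8a2 was at 0 in all but KO replicate 1. The 5 blood markers summed to at most 2.26 CPM. The part of these shifts in the values of the imprinted genes was not tested.

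Of the Y-linked genes Ddx3y, Eif2s3y and Kdm5d had 0 counts in all 4 libraries, and Uty had 4, 1, 5 and 0 counts in WT replicates 1 and 2 and KO replicates 1 and 2. Xist, the noncoding RNA of X inactivation, stood at 202 and 59.8 CPM in WT and at 69.6 and 6.06 CPM in KO.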

How the data were processed

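The deposited table holds read counts per gene, as whole numbers without normalisation, for 4 single embryos. Per the submitters' processing notes, TopHat and Cufflinks were used with mm10, in roles and versions that are not stated there. Not given in the sources used here are the program that counted reads, whether it used strand, and its gene models. Total counts ran from 16108062 to 28698541 per library. A single count equalled 0.0359 to 0.059 CPM, and a count of 0 in both libraries of a group allows up to 3 counts (0.0841 CPM for WT, 0.0612 CPM for KO). These floors cover counting error only, as amplified reads are not independent molecules.

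Of 47885 rows, 46574 had an identifier in GENCODE M21, which gave symbols, coordinates and exon lengths. Unnamed gene models numbered 816 and took at most 0.252% of counts. KO was compared with WT by edgeR 4.0.16 in R 4.3.3 (filterByExpr with minimum count 10 and minimum total 15, TMM, robust quasi-likelihood F test), with Benjamini-Hochberg adjustment over 15563 genes. SE is the absolute log2 fold change over the square root of F. Medians against the WT mean used log2(CPM + 1). On simulated KO against WT counts of 15563 genes with 200 changed, in 5 draws, the share found by edgeR was 1.6% at a log2 change of 1, 31.6% at 2, 62% at 3 and 77.6% at 4, with 5.2 false calls per draw. DESeq2 found 7.6%, 54.4%, 73.2% and 83.6% at the same 4 changes and made 29.6 false calls per draw. Alternatives were DESeq2 1.42.0, limma-voom 3.58.1, other scalings and filters, a replicate block and each library left out. Every member is accounted for. From some of the other lists, genes of small unadjusted p or with groups that did not overlap are named, with no fixed number per list. The members and lists were chosen with earlier results of these data known.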

Additional observations from a re-analysis of the deposited data

How the results depend on the processing

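With 2 embryos per group only large differences could pass, and 1 library could change most values. No alternative called an imprinted gene higher. Imprinted genes called lower numbered 0 by edgeR and also with voom, RLE scaling, library totals and at least 50 counts in 2 libraries. They numbered 3 with DESeq2, 4 with no low-count filter (Peg10, Meg3, Rian and Rtl1), and 0 to 6 with 1 library left out, the 6 without KO replicate 1. Over all genes the calls were 150 higher and 90 lower by DESeq2, 157 and 101 without the low-count filter, and after leaving out 1 library 14 to 133 higher and 1 to 209 lower. With 1 library left out the lone sample is assumed to vary like the other group. The medians then ran from -0.93 to -0.30 for all tested members, from -0.87 to -0.29 for the paternal copy and from -0.86 to -0.32 for the maternal copy.

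Replicate numbers are shared by label only, and the difference between WT embryos correlated at 0.329 with that between KO embryos over tested genes, on log2 CPM with a prior count of 2 (0.371 on log2(CPM + 1)). The replicate block gave 52 higher and 19 lower genes, and 3 imprinted genes lower (Peg10, Meg3 and Rian).

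Of the 35 tested members 21 kept their sign in each of the 11 alternatives that tested them. The sign of Plagl1 changed with voom (0.091) and that of Snrpn with library totals (0.0096). With 1 library left out, 14 genes changed sign, and the cause was not tested: Plagl1 ran from -3.33 to 0.38, Kcnq1ot1 from -4.29 to 1.08, Ppp1r9a from -1.72 to 0.38, Sgce from -1.27 to 0.016, Mest from -1.22 to 0.12, Jade1 from -1.07 to 0.49 and H19 from -0.64 to 0.094. Snrpn ran from -0.58 to 0.47, Slc22a18 from -0.56 to 0.55, Igf2 from -0.53 to 0.16, Nnat from -0.47 to 0.73, Nap1l4 from -0.37 to 0.044, Cd81 from -0.30 to 0.49 and Commd1 from -0.042 to 0.34.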
